A study of Rattus norvegicus with 6 samples.

Results

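Interleukin-6 and STAT3 signalling was followed through 8 genes in rat liver: the ligands Il6 and Lif, the receptor chains Il6r, Il6st and Osmr, the transcription factors Stat3 and Cebpd, and the inhibitor Socs3. They were taken as the probes, other than controls, whose accession belongs to one of these genes, which gave 8 genes of 15443 named genes, with 1 probe each among 30367 probes in all. Total RNA from tissue blocks was hybridised to 6 Agilent arrays in 1 colour, 1 array per rat. The normal group was 3 normal rats, and the fibrosis group was 3 rats in which hepatic fibrosis had been induced by bile duct ligation, an operation that stops the flow of bile. Strain, sex, age, any sham operation and the time after ligation are not given in the sources used here. The question of the design was how gene expression in the fibrotic liver differs from that in the normal liver.

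Interleukin-6 binds its receptor IL6R, and the pair then engages the shared signal chain gp130, the product of Il6st. Gp130 activates Janus kinases, which phosphorylate STAT3, and STAT3 enters the nucleus and drives genes that include Socs3, whose product in turn blocks the receptor. In the liver this route is known for the acute phase response of hepatocytes and for supporting regeneration. LIF and oncostatin M use gp130 together with LIFR or OSMR. The arrays read mRNA, so the phosphorylated state of STAT3, on which its activity rests, was not measured.

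Among the members, Osmr was the one that passed the test, higher in fibrosis than in normal livers, where 1 of 3 arrays was not above background. Osmr entered the test through the fibrosis group alone. Its call was lost with another background correction. Il6 was not well above background in any normal liver and was so in 2 of 3 fibrotic livers. Stat3 was higher and Il6r lower in every fibrotic liver than in every normal one, and neither passed the test. Lif, Il6st, Socs3 and Cebpd had overlapping groups, with Socs3 far more spread among the fibrotic livers than among the normal ones.

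The upstream sequences of Il6 and Osmr are shown because Osmr was the member called and Il6 the member above background in fibrotic livers alone. Each runs from 250 bases upstream to the base before the annotated start, 5′ to 3′ on the strand of the gene, from RefSeq on the GRCr8 build. Il6 lies on the minus strand at chr4:5894576-5894825 and Osmr on the minus strand at chr2:57688562-57688811. Capitals mark matches to the searched motifs.
Il6: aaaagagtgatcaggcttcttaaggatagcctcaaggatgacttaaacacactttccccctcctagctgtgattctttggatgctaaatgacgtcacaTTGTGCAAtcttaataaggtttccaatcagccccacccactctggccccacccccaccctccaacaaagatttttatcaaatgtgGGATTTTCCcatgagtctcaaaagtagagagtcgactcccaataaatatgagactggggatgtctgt
Osmr: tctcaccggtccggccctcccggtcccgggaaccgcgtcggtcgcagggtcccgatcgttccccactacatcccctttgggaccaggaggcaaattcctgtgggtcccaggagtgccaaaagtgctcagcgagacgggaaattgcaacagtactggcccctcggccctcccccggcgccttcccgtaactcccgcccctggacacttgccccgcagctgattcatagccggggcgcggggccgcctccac
In Il6 the capitals are a match to the C/EBP letters TTGCNNAA, read on the opposite strand as TTNNGCAA, at -152 to -145 from the start, and a match to the NF-kB letters GGNNTTTCC at -67 to -59. The STAT letters TTCNNNGAA and the acute phase letters CTGGGAA were also searched on both strands, and Osmr held none of the 4 motifs in this window. Of the 8 members, 6 had an upstream sequence in the table, and 0 of the 6 held the STAT letters. Over 33469 upstream sequences of the same length, 7.67% held the STAT letters, 9.56% CTGGGAA, 9.22% the C/EBP letters and 5.19% the NF-kB letters. A match is a run of letters and no measured site. Letters outside these 250 bases were not searched, and the annotated starts were not checked against the transcripts of these livers.

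All values of the members are log2 processed signals minus the 75th percentile of their array, so 0 is the level of a fairly bright probe, and levels of different probes cannot be set against each other. The scanner software marked 18.8% to 35.2% of the spots of an array as non-uniform or as outliers, and these marks fell unevenly on the members. All 6 Stat3 spots, 51 of 60 Il6r spots, 7 of 12 Socs3 spots, 5 of 12 Cebpd spots, 3 of 6 Il6st spots and 3 of 60 Il6 spots were marked, against 0 of 12 each for Lif and Osmr. With marked spots left out, 3 of 8 members could be tested, namely Lif, Osmr and Cebpd. With marked spots kept, 7 of 8 could be, and Il6 alone missed the requirement of being above background on all arrays of a group. Values per array below include marked spots unless stated. The arrays' 75th percentile ran from 3755 to 4386 signal units in normal livers and from 4840 to 6401 in fibrotic livers.

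**Figure D1:**
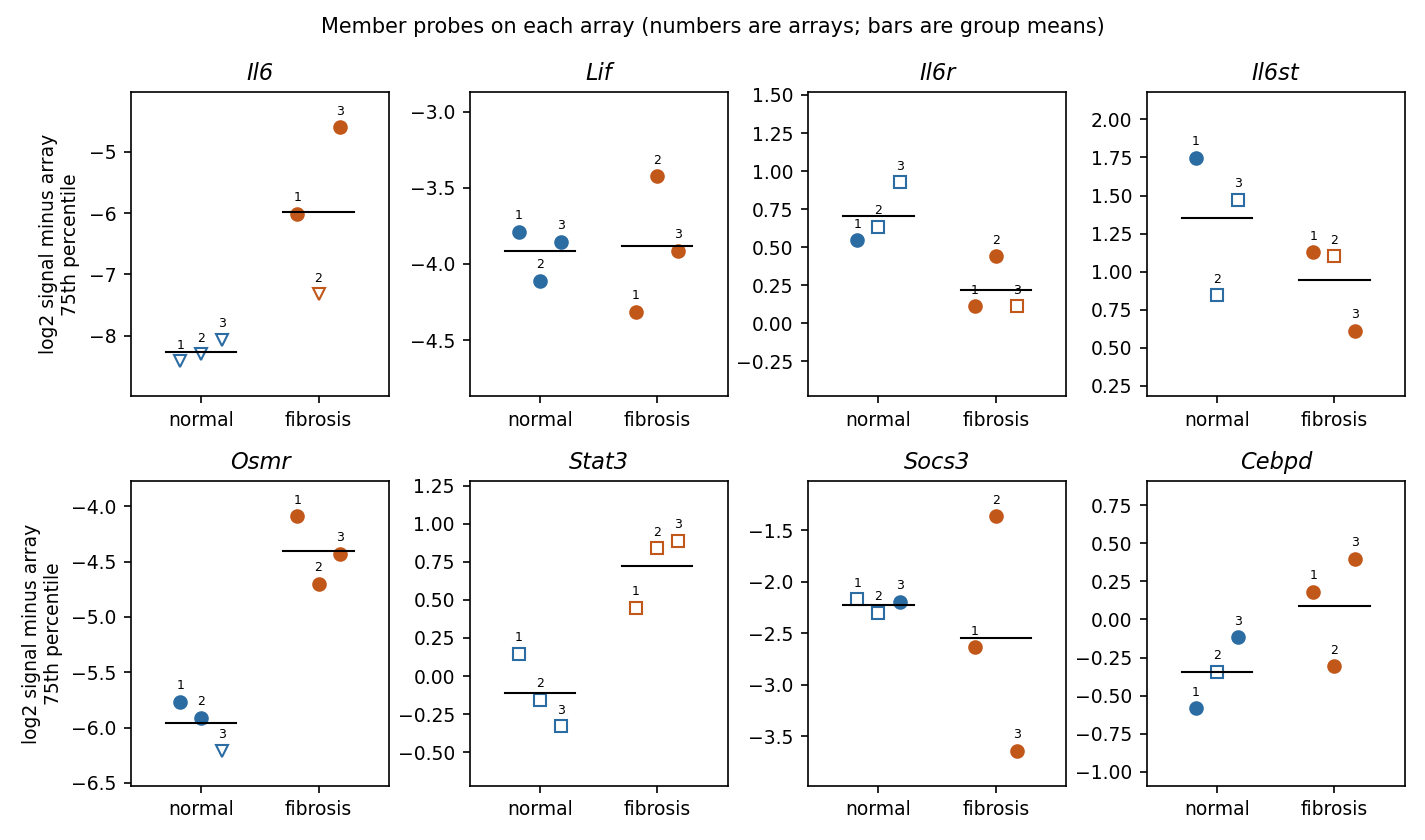
Log2 level of each member, relative to the 75th percentile of the array, on the 3 normal and the 3 fibrosis arrays, with all spots; horizontal bars are group means. Filled circles had at least 1 unmarked spot, open squares had marked spots alone, and open triangles were under the background call. Osmr and Il6 sit higher on all 3 fibrosis arrays, and Socs3 spreads from -3.64 to -1.37 there.

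With marked spots left out, 1 of the 3 tested members was called higher in fibrosis, at an adjusted p under 0.05, where 15.2% of 12620 tested probes were called higher and 4.83% lower. With marked spots kept, 1 of 7 was called, where 12.4% of 19731 tested probes were called higher and 6.79% lower. That split depended on scaling, and with each array centred on its median 9.58% were called higher and 19.7% lower. Groups did not overlap for 3 of these 7 members, 2 higher and 1 lower in fibrosis, where 19.1% of tested probes had all fibrosis values above and 19.3% all below the normal ones. The members' counts are therefore of the order of the background. The median difference of all tested probes was -0.01 with marked spots left out and -0.10 with marked spots kept. It moved to -0.20 with quantile normalization, -0.38 with median centring and 0.34 with scaling to the E1A spike-in control probes.

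Il6, the ligand that gives the pathway its name, was read by 10 spots per array. It lay at -8.42, -8.30 and -8.06 in the normal livers and at -6.01, -7.32 and -4.59 in the fibrotic ones. Each fibrotic liver was above each normal liver, and fibrosis array 2 stood closest to the normal range. In signal units the normal arrays read 11.4, 13.9 and 14.0, and the fibrosis arrays 99.4, 30.3 and 212. The background call was passed by 0 of 10 spots on each normal array and on fibrosis array 2, by 10 of 10 on fibrosis array 1 and by 9 of 10 on fibrosis array 3. Il6 was thus measured in 2 of 3 fibrotic livers and in no normal one. With unmarked spots, the fibrosis mean was -5.94, which includes array 2 under the background call. It lay 2.36-fold above -7.18, the mean over the normal arrays of the weakest signal called above background. The mean signal of Il6 itself there was -8.26. Probes under the call can read above that weakest signal, as Osmr did on normal array 3 (-6.21 against -6.98). The 2.36 is therefore a reference and no lower limit. With no measured level in the normal livers, Il6 has no measured fold and no test. Spots of 1 array had a median SD of 0.15 on the log2 scale, and at most 0.64, with the widest spread of spots on fibrosis array 2.

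**Figure D2:**
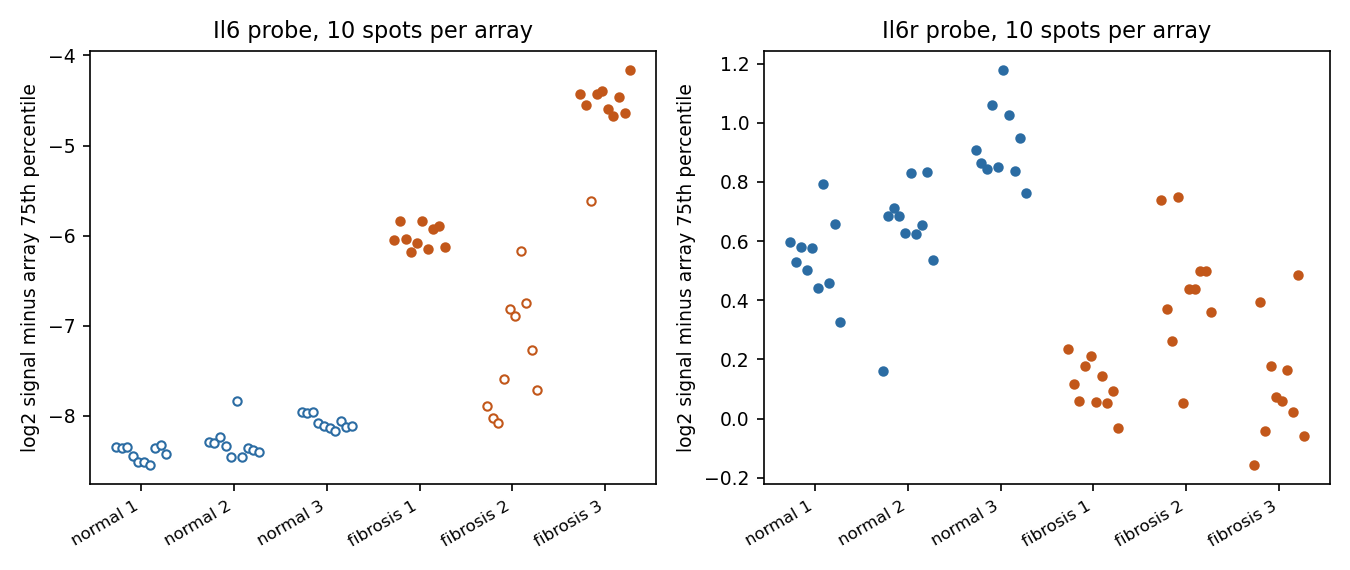
Every spot of the 2 members printed 10 times per array, Il6 and Il6r, as log2 signal relative to the 75th percentile of the array; open symbols were not well above background. The Il6 spots of fibrosis arrays 1 and 3 stand clear of the normal arrays, while single Il6r spots of the groups overlap on an axis that spans far less.

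Bulk RNA cannot tell a change in the number of cells of a type from a change of RNA per cell, and markers of several cell types moved with the groups. The summed level of 7 neutrophil markers, in multiples of the 75th percentile, was 0.199 to 0.360 in normal livers and 3.06, 0.752 and 2.66 on fibrosis arrays 1, 2 and 3. Array 2 was lowest among the fibrotic livers for these markers and for Il6, which was under the background call there. The highest was array 1 for these markers and array 3 for Il6. The macrophage and lymphocyte sums given below were lowest on array 1. Of the 7, Elane, Cxcr2 and Mmp8 were not above background on any normal array and Elane on none at all. By their brightest probes 2 of the 7 were above background on all 6 arrays. Others could enter the test through the fibrosis group alone. Of 4 tested 3 were called higher, beside 14.7% of all genes tested with marked spots kept. Such entry favours a higher call, so this count is a description and no support for a rise. The sum of 10 macrophage markers was 32.3 to 36.7 in normal and 36.8 to 39.0 in fibrotic livers, with 0 of 10 called higher and 1 lower. For 8 lymphocyte markers the sums were 0.682 to 0.950 and 0.695 to 1.13, with 0 of 6 called higher and 1 lower. A sum follows its brightest genes. The median log2 difference of the tested markers was 2.31 for neutrophils, 0.20 for macrophages and -0.58 for lymphocytes, with marked spots kept. The part of these cell types in the Il6 signal was not tested.

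Lif, the leukaemia inhibitory factor, lay at -3.79, -4.11 and -3.86 in normal livers and at -4.32, -3.43 and -3.91 in fibrotic livers. Both the highest and the lowest value were fibrotic, and the groups overlapped. The log2 difference was 0.03 ± 0.29 (SE, 95% interval -0.64 to 0.70, limma adjusted p = 0.954), so changes within that interval in either direction remain possible.

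Osmr encodes the chain that joins gp130 in the oncostatin M receptor, which is known on mesenchymal and epithelial cells as well as on hepatocytes. Its level was -5.77, -5.91 and -6.21 in normal livers and -4.09, -4.70 and -4.43 in fibrotic livers. All fibrotic values lay above all normal values, with a gap larger than the range within either group. The log2 difference was 1.55 ± 0.27 (SE, 95% interval 0.94 to 2.17, limma adjusted p = 0.00492), which is 2.94-fold with an interval of 1.92 to 4.50. The probe was dim and entered the test through the fibrosis group alone. It was above background on all 3 fibrosis arrays and on 2 of 3 normal arrays. On normal arrays 1, 2 and 3 the call was passed by 2, 1 and 0 of 2 spots. The normal mean and the fold thus include a value that was not measured. As entry came through the group where the probe was high, the adjusted p is a description and no independent support for a rise. Correcting the background with normexp on the median signals lowered the difference to 0.66, with a limma adjusted p of 0.0569. With the row of the slide as a block, which compares the normal livers with fibrosis array 1 alone, it was 1.87 with an adjusted p of 0.0231, in a fit that takes the lone fibrosis array to vary like the others.

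Markers of some of the cell types that can carry this receptor moved beside it. Of 8 tested cholangiocyte markers 7 were called higher and 0 lower, and the sum over 8 went from 3.97 to 5.03 in normal livers to 13.2 to 14.9 in fibrotic ones. Among 9 tested stellate cell and myofibroblast markers 5 were called higher and 0 lower, and the sum over 10 went from 5.93 to 9.38 to 13.9 to 30.9, with Lum above background in no normal liver. The sum of 10 hepatocyte markers, all above background on all 6 arrays, ran the other way, from 143 to 151 down to 86.6 to 97.6, with 1 of 10 called lower. For 8 endothelial markers the sums were 12.0 to 12.9 and 7.64 to 11.0, with 0 of 8 called. Median log2 differences with marked spots kept were 5.12 for cholangiocyte, 2.08 for stellate cell and myofibroblast, -0.79 for hepatocyte and 0.22 for endothelial markers. The endothelial sum thus fell while the median of these markers was above 0. Over all genes tested in this way 14.7% were called higher and 7.62% lower. Their part in the Osmr difference was not tested.

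Il6r, the chain that binds interleukin-6 itself, was bright and lay at 0.55, 0.63 and 0.93 in normal livers and at 0.11, 0.44 and 0.11 in fibrotic livers. Every fibrotic value was below every normal value, the nearest being 0.44 on fibrosis array 2 and 0.55 on normal array 1. Each value is a mean of 10 spots. Single Il6r spots of 1 array had a median SD of 0.16, and single spots of the groups overlapped. The spread between spots does not measure the spread between animals. With marked spots kept, the log2 difference was -0.48 ± 0.24 (SE, 95% interval -1.03 to 0.07, limma adjusted p = 0.211), which did not pass the test. It passed with median centring, at -0.84 and an adjusted p of 0.0399, and with array weights, at -0.60 and 0.0320.

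Il6st encodes gp130, the chain common to the whole ligand family. Its single spot per array read 1.75, 0.84 and 1.47 in normal livers and 1.13, 1.10 and 0.61 in fibrotic livers. Normal array 2 fell below 2 of the fibrotic livers, and the groups overlapped. The log2 difference was -0.41 ± 0.31 (SE, 95% interval -1.11 to 0.30, limma adjusted p = 0.410) with marked spots kept. The receptor chains therefore did not share a direction past the test: Osmr rose, and Il6r and Il6st had negative estimates whose intervals reach above 0.

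Stat3, the transcription factor downstream of gp130, was at 0.15, -0.16 and -0.33 in normal livers and at 0.45, 0.84 and 0.89 in fibrotic livers. Every fibrotic value lay above every normal one, with fibrosis array 1 the nearest to the normal range. The log2 difference was 0.84 ± 0.25 (SE, 95% interval 0.26 to 1.42), or 1.79-fold with an interval of 1.19 to 2.68. The limma p was 0.0105 before and 0.0533 after adjustment over all probes, so Stat3 missed the threshold by little. It was called in 5 of 16 settings with marked spots kept, with differences of 0.48 to 1.18 across them, and the row of the slide as a block gave 0.56 with an adjusted p of 0.451. The value rests on 1 spot per array, which the scanner software marked on all 6 arrays.

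Cebpd encodes C/EBP delta, a factor of the acute phase response that cytokines induce. It lay at -0.58, -0.34 and -0.12 in normal livers and at 0.18, -0.31 and 0.40 in fibrotic livers. Fibrosis arrays 1 and 3 were above the normal range and array 2 lay inside it. The log2 difference was 0.49 ± 0.32 (SE, n = 2 and 3, 95% interval -0.27 to 1.25, limma adjusted p = 0.351) with marked spots left out, which dropped normal array 2. With all 6 arrays it was 0.44 ± 0.28, with an adjusted p of 0.318.

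Socs3 encodes the feedback inhibitor that STAT3 induces. It was at -2.17, -2.30 and -2.19 in normal livers and at -2.64, -1.37 and -3.64 in fibrotic livers. The normal livers lay within 0.13 of each other on the log2 scale, and the fibrotic livers spanned 2.27, with array 2 above and arrays 1 and 3 below all normal livers. The log2 difference was -0.32 ± 0.51 (SE, 95% interval -1.49 to 0.84, limma adjusted p = 0.709) with marked spots kept. Its sign turned on single arrays: without fibrosis array 3 the estimate was 0.22, and without fibrosis array 2 it was -0.92 with an adjusted p of 0.0979. Among the fibrotic livers, array 2 was highest for Socs3, Lif and Il6r and lowest for Il6, Osmr and Cebpd. For Il6st and Stat3 it lay between arrays 1 and 3.

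**Figure D3:**
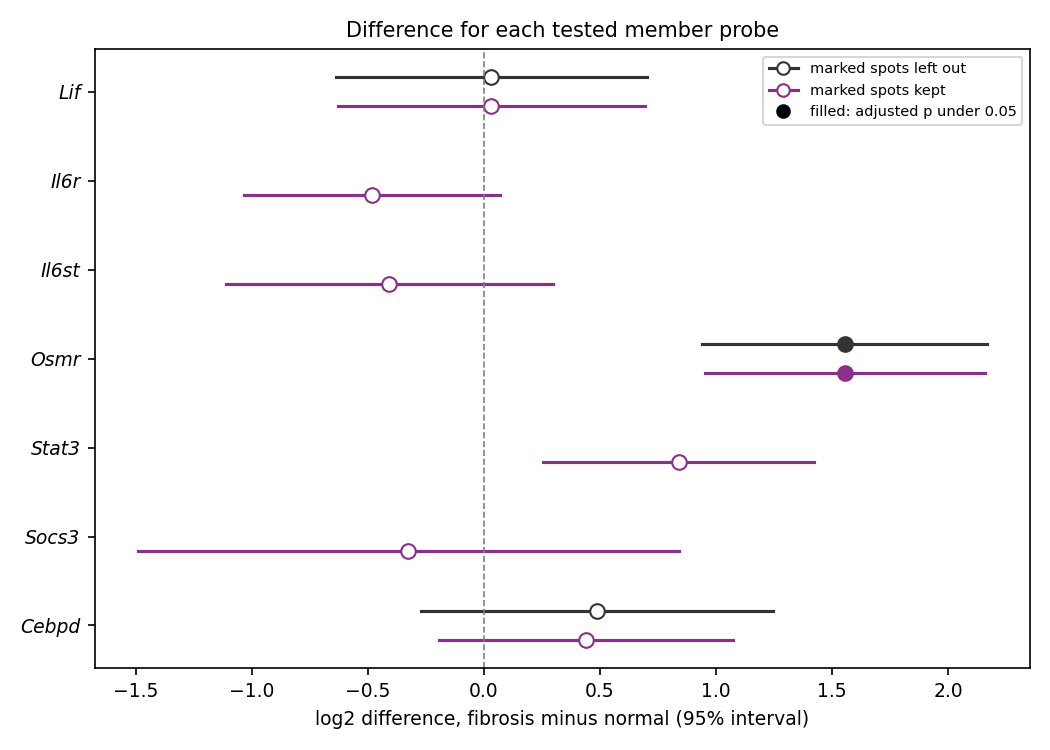
Log2 difference, fibrosis minus normal, of each member with its 95% interval, with marked spots left out and with marked spots kept; Il6 was not tested, and filled points passed an adjusted p of 0.05. The interval of Osmr (0.94 to 2.17) and that of Stat3 (0.26 to 1.42) lie above 0. Osmr entered the test through the fibrosis group alone. Socs3 has the widest interval among the members tested with marked spots kept.

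The rest of the pathway was described through 8 lists by role, with the members included and each gene read by its brightest tested probe. Of 98 listed genes 91 were on the array, and with marked spots kept 83 were tested, of which 9 were called higher and 4 lower, with a median difference of -0.10. Over all 10864 genes tested in this way 14.7% were called higher and 7.62% lower, with a median of -0.07, so the lists together held shares near those of all genes. With marked spots left out 53 were tested, with 7 called higher and 1 lower and a median of 0.03, beside 17.3% and 4.87% of 7433 genes. Counts and medians of the lists below are with marked spots kept, and values of named genes are from the fit with marked spots left out unless stated.

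Of the 6 tested ligands reported here 0 were called by limma in either direction, and 0 had an unadjusted p under 0.05, with a median of -0.39. The smallest p among them belonged to Osm, the oncostatin M that binds OSMR. It was at -5.06, -5.76 and -5.59 in normal livers and at -7.04, -5.67 and -6.09 in fibrotic livers, above background on 3 of 3 and 2 of 3 arrays. The groups overlapped, and the log2 difference was -0.79 ± 0.39 (SE, limma adjusted p = 0.201), so the ligand of the rising receptor chain did not pass the test. Of 5 tested receptor and shedding genes, Osmr alone rose and 0 fell, with a median of -0.24. With marked spots left out, Il11ra1, a chain of the interleukin-11 receptor, came next at -0.95 ± 0.35 (SE, n = 2 and 2, limma adjusted p = 0.120), and with marked spots kept it stood at -0.24 ± 0.47 on all 6 arrays (adjusted p = 0.770).

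Of 11 tested kinases, STATs and adaptors 0 were called by limma in either direction, and 1, Stat3, had an unadjusted p under 0.05, with a median of 0.03. Stat3 had the highest difference among them at 0.84 and the lowest stood at -0.41. The smallest p with marked spots left out belonged to Sos1, an exchange factor for Ras, at -0.63 ± 0.33 (SE, limma adjusted p = 0.230), while its brighter probe, tested with marked spots kept, gave -0.34 ± 0.26 (adjusted p = 0.427). Of 12 tested inhibitors 1 rose and 0 fell, with a median of 0.18. That one was Ptpn1, a phosphatase that acts on Janus kinases, with 0.84, 0.70 and 0.62 in normal and 1.41, 1.56 and 2.10 in fibrotic livers, a difference of 0.97 ± 0.27 (SE, limma adjusted p = 0.0371). Ptpn1 was called in 9 of 18 settings, and lost its call without any 1 normal array or without fibrosis array 2 or 3 (adjusted p = 0.0543 to 0.148).

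Of 6 tested C/EBP factors 0 rose and 1 fell, with a median of -0.26. Cebpa, the C/EBP factor of the differentiated hepatocyte, lay at -2.57, -2.81 and -2.89 in normal livers and at -4.51, -4.85 and -4.21 in fibrotic livers. Its groups were far apart, with a difference of -1.77 ± 0.26 (SE, limma adjusted p = 0.00247). Cebpd, with its positive estimate, did not pass the test beside it.

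Among 19 tested acute phase genes that interleukin-6 can raise, the test called 4 higher and 2 lower, and 13 did not pass, with a median of -0.41. The 4 that rose were Lcn2, an iron-carrier binding protein, at 4.40 ± 0.34 with marked spots kept (SE, limma adjusted p = 0.000132), A2m, a broad protease inhibitor and the classical rat acute phase protein, at 3.86 ± 0.37, Lbp, which binds lipopolysaccharide, at 1.91 ± 0.24 with marked spots kept, and Il1rn, the interleukin-1 receptor antagonist, at 1.62 ± 0.34. A2m went from -2.02, -1.67 and -2.49 in normal livers to 1.97, 2.31 and 1.11 in fibrotic livers, and Lcn2 from -1.39, -1.38 and -2.17 to 2.41, 3.30 and 2.55. In both the groups were far apart. Crp, the pentraxin, fell by 2.13 on the log2 scale, from -0.99, -0.46 and -0.97 to -2.55, -3.94 and -2.30 (limma adjusted p = 0.0115), and Hamp, which encodes the iron hormone hepcidin, fell by 0.95 (limma adjusted p = 0.0432), both with marked spots kept. Hamp was called in 7 of 16 settings, Crp in 13 of 16 and Il1rn in 16 of 18, while Lcn2, A2m and Lbp were called in every setting run on them. Without normal array 3 Il1rn stood at 1.53 with an adjusted p of 0.0544, and without normal array 2 Crp stood at -1.95 with 0.0512. Scaling to the E1A control probes put Crp at -1.78 with a limma adjusted p of 0.0551. With the row of the slide as a block Il1rn stood at 1.74 and Crp at -1.75, and neither was called. Hamp lost its call without normal array 2 or 3 or fibrosis array 1 or 2 (adjusted p = 0.0785 to 0.195). With marked spots left out 5 acute phase genes remained, with a median of 1.38, so the sign of the list's median depended on the marked spots. The lower sum of hepatocyte markers given above moved beside this list, and its part was not tested.

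Of 19 tested STAT3 targets outside the acute phase 2 rose and 0 fell, with a median of 0.05. Timp1, an inhibitor of matrix metalloproteinases, was at -0.24, -0.93 and -0.55 in normal livers and at 1.86, 2.00 and 1.69 in fibrotic livers, a difference of 2.42 ± 0.26 with marked spots kept (SE, limma adjusted p = 0.000574). Birc5, which encodes the mitotic protein survivin, rose by 1.37 ± 0.31 (SE, limma adjusted p = 0.0161), or by 1.12 with an adjusted p of 0.0749 without normal array 3. It was called in 16 of 18 settings, and was not called with the row of the slide as a block, at 1.18. Dimmer probes of 3 other targets, named after their values were seen, were called with marked spots kept where the brightest probe was not. They were Vegfa at -1.28 (limma adjusted p = 0.0129), Il4r at -0.91 (0.0261) and Fosl2, which was higher. The Fosl2 probe was above background on no normal array and entered the test through the fibrosis group alone. No fold or p is therefore given for it. Of this list 2 genes were called lower with quantile normalization or median centring, and 1 with cyclic loess. Among 5 tested inducers of Il6, 1 rose and 1 fell, with a median of 0.06. Tnf, an inflammatory cytokine, rose by 1.53 ± 0.45 (SE, limma adjusted p = 0.0475), from -4.07, -5.14 and -5.45 to -4.08, -3.21 and -2.77, and was called in 8 of 18 settings. The one that fell was Il1a, named here after its values were seen, at -1.74 ± 0.51 (SE, limma adjusted p = 0.0479) on its brighter probe with marked spots kept, and at -0.80 ± 0.64 on the other. Without normal array 2 or 3 or fibrosis array 2 or 3, neither Tnf (adjusted p = 0.105 to 0.165) nor Il1a (0.109 to 0.165) passed.

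**Figure D4:**
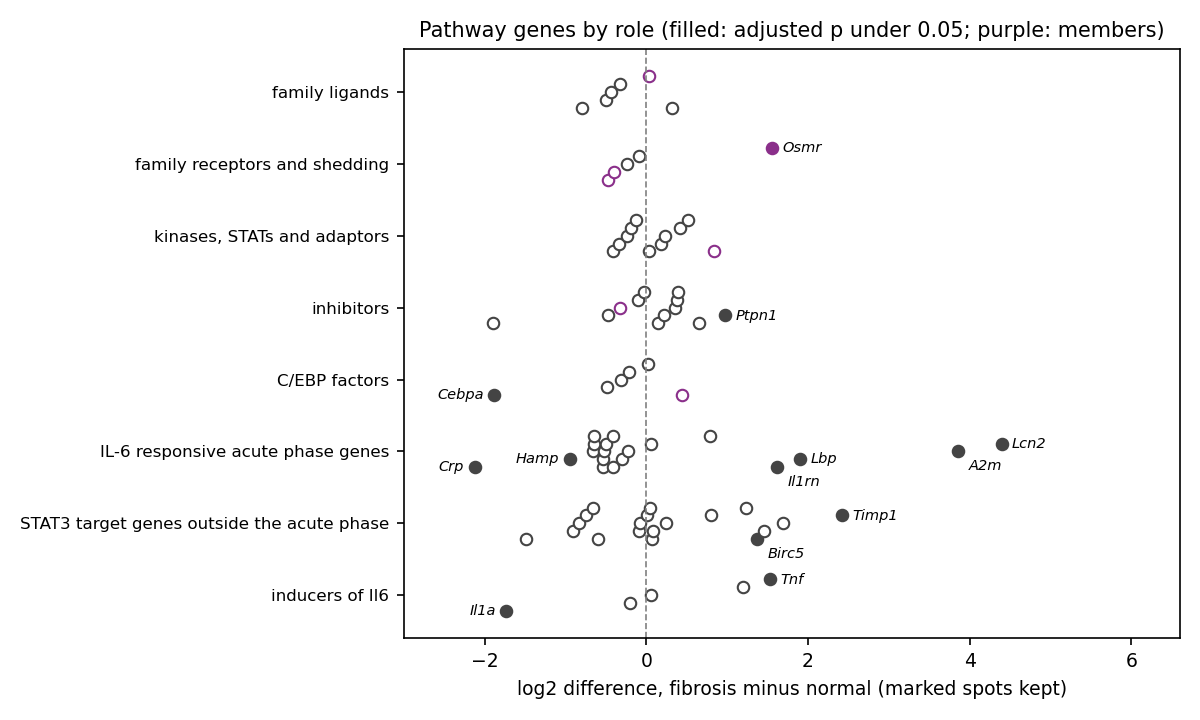
Log2 difference, fibrosis minus normal, of the tested genes reported from the 8 pathway lists with marked spots kept, 1 point per gene; filled points passed an adjusted p of 0.05 and purple points are members. Most points lie near 0, and those farthest above it are the acute phase genes Lcn2 and A2m, at 4.40 and 3.86.

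Gene by gene, the profiles most like a member's over the 6 arrays were sought among 12618 tested probes of other named genes, by Pearson's r, as a description of a search over so many probes. Osmr ran most like Gbp5 (r = 0.999), Cdyl2 (0.995) and Slc1a5 (0.994). Il6 ran most like Dnai7 (0.997), Dbnl (0.997) and Svbp (0.996). For Stat3 these were Lat (0.997), Mki67 (0.995) and Dok1 (0.995), and for Socs3 Fgfr2 (0.997), Pcdhga2 (0.995) and Edar (0.995). The closest gene was Cbr1 for Cebpd (0.999), Ppp4r2 for Il6r (0.995), Rnf187 for Il6st (0.989) and Bcas3 for Lif (0.988). All points share their arrays, so these likenesses hold any effect of the array itself and any shift between the groups.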

How the data were processed

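Cy3-labelled cDNA of 6 livers was put on 1-colour arrays, as the labels say. The authors deposited linear spot intensities from Agilent Feature Extraction 11.5.1.1, background-subtracted per the file headers. All 6 arrays lay on 1 slide in 1 scan, with fibrosis arrays 2 and 3 in the second row.

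From these, log2 processed signals minus each array's 75th percentile were computed, with control spots left out and spots of a probe averaged. Spots marked as non-uniform or as outliers were left out, or kept where stated. To be tested, a probe needed the scanner's background call in a share of at least 0.5 of its spots on each array of either group, and values on no fewer than 2 arrays per group. Groups were compared with limma 3.58.1 in R 4.3.3, adjusted by Benjamini-Hochberg over all tested probes and called at 0.05. Array number limits the precision. Accessions were matched without version to RefSeq's GRCr8 gene table, which named 18355 probes and 15443 genes.

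Named beside the members were, per list, up to 2 called genes with the largest rise and 2 with the largest fall, or else the smallest p, first without marked spots. Members and lists were chosen with earlier results of these data known, and some genes of the lists are not reported here and are in none of the list counts. Alternatives covered scaling, background, filters, weights, the row of the slide and each array left out. Replicate numbers follow record order and only name arrays.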

Additional observations from a re-analysis of the deposited data

How the results depend on the processing

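No paired analysis was possible because the replicate numbers were given in record order and pair no animals. 0 called members changed direction. Osmr was called in 31 of 33 settings (0.66 to 1.90), Lif in 0 of 34, Cebpd in 0 of 32 and Il6st in 0 of 16. Members called higher numbered 1 with marked spots left out, 0 with normexp, 0 with a filter on all 6 arrays, under which Osmr was not tested, also 0 with normexp and marked spots kept, and 2 with marked spots kept and quantile, cyclic loess, E1A scaling, array weights or robust eBayes. Leaving out 1 array gave 1 to 2, where the 2 count Il6, which enters the test only when the low fibrosis array 2 is left out and has no measured normal level. Members called lower numbered 0, and 1 with marked spots kept and median centring or array weights.

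Probes called lower numbered 610, against 1339 with marked spots kept, 1150 with quantile normalization, 1678 with median centring, 167 with E1A scaling, 323 without a filter and 127 with the row block. With marked spots kept they were 1714 (quantile), 3884 (median), 1263 (cyclic loess), 326 (E1A), 1439 (normexp), 178 (row), 3580 (weights) and 1668 (robust). Probes called higher numbered 1915, against 1166 with the filter on all 6 arrays and 961 with the row block, and with marked spots kept 2941 (E1A), 1020 (row) and 3637 (weights). Leaving out 1 array gave 1228 (normal array 3) to 2149 higher and 201 to 684 lower (289, 268 and 201 without normal arrays 1, 2 and 3), or 1514 to 2851 and 450 to 1620 with marked spots kept (1070, 1478 and 1620 lower without fibrosis arrays 1, 2 and 3). Pathway genes called lower went from 1 to 4 with marked spots kept, 3 with quantile, 5 with median centring and 2 with cyclic loess or normexp. Those called higher went from 7 to 4 with median centring or normexp. The cause was not tested. The alternatives with marked spots kept, other than quantile normalization and arrays left out, were chosen after seeing the data. Il6 and the normal Osmr values lie near background, which limits their folds, and 3 arrays per group limit all intervals.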

Other observations

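Steap4, a metalloreductase among the acute phase genes, was named after its values were seen, because its probes differed. The probe that stood for it with marked spots left out rose by 1.38 ± 0.38 on the log2 scale (SE, limma adjusted p = 0.0356), and was called in 8 of 18 settings. The brighter probe, tested with marked spots kept, gave 0.79 ± 0.48 and did not pass (limma adjusted p = 0.307). A dimmer probe of Saa4, an apolipoprotein of the acute phase list also named after its values were seen, stood at -0.94 ± 0.26 with marked spots kept (limma adjusted p = 0.0388), while its brightest probe was not called.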
